A study of Mus musculus with 10 samples.

Results

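The comparison set 2 converted mouse embryonic stem cell lines side by side: conv-dSVA_F, named for a deletion of the retrotransposon SVA_F, and conv-dSVA_D, named for a deletion of SVA_D. Its 4 libraries, 2 of each line, were chosen by their names among the 7 library columns of the deposited expression table, and the series lists 10 samples in all. All 15240 genes with a mean of at least 10 normalized counts over the 7 columns were compared, of 54456 genes in the table. The other 3 columns, 2 libraries of the line conv-dSVA_F&D and 1 of the wild-type line MK6, gave reference levels and added to the estimate of the spread.

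Both lines were C57BL/6J embryonic stem cells grown on gelatin with serum, LIF, the GSK3 inhibitor CHIR99021 (3 µM) and the MEK inhibitor PD0325901 (1 µM). Their genotypes share every engineering step that the labels list: the loxP[Taf1_i24] site, pSpCas9 and pSpCas9GFP, the swap-in construct LPSwapinRed_pUC19[Taf1_3_4], a "mousified" human TAF1 segment at Taf1 and pCAGiCre. The last terms of the genotype of conv-dSVA_F are mousifiedSVAdel and converted, and those of conv-dSVA_D are mousified, dSVA2 and converted. conv-dSVA_F&D is the converted line named for both deletions, and MK6 is labelled wild type. Each genotype is represented by 1 line whose clonal origin the labels do not give, and effects of genotype and of clone cannot be told apart. Nothing in the labels tells whether the 2 libraries of a line are separate cultures; p-values reflect how far these libraries vary, which may be technical.

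TAF1 is the largest subunit of TFIID, the general transcription factor that binds core promoters and positions RNA polymerase II at the start site. SVA elements are composite retrotransposons of apes and humans, and an SVA insertion in an intron of TAF1 is the genetic lesion of X-linked dystonia-parkinsonism. Embryonic stem cells keep a pluripotent transcription program, contain rare cells that switch on genes of the embryo at the 2-cell stage, and are prone to changes in imprinted expression and in chromosome number during culture.

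Reads assigned to genes numbered 24875359 and 21360424 for conv-dSVA_F and 22385569 and 26562418 for conv-dSVA_D. Levels below are normalized counts, that is, reads divided by 1 size factor per library, and pairs of values follow replicates 1 and 2. They are not divided by gene length, so levels are compared between libraries and not between genes. Differences are log2 of conv-dSVA_F over conv-dSVA_D after adding 1 to each value, ± the standard error. Adjusted p-values come from limma with Benjamini-Hochberg adjustment over the 15240 genes, and a gene is called changed below 0.05. The 8 stem cell markers, among them Pou5f1, Nanog and Sox2, summed to 124037 and 129211 in conv-dSVA_F, against 150419 and 153606 in conv-dSVA_D. Their sum was 156756 normalized counts for the wild type, while conv-dSVA_F&D reached 142589 and 139969. Both conv-dSVA_F libraries thus had lower sums than all others, although none of the 8 markers was called. Fibroblast and feeder markers summed to 118 to 134 in conv-dSVA_F and 80.8 to 86.4 in conv-dSVA_D, against 347 in the wild type, with Lum and Postn at 0 in all 6 converted libraries.

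Taf1, the engineered gene (ENSMUSG00000031314, chromosome X, 101532734 to 101601789 of GRCm38), stood at 501 and 589 normalized counts in conv-dSVA_F and at 362 and 418 in conv-dSVA_D. The wild type was 2898, and conv-dSVA_F&D had 1116 and 1088. How reads from the human-derived segment, which the converted lines carry and the wild type does not, were counted is not known, so Taf1 levels of converted lines and wild type may not be comparable. Both deletion lines lay below conv-dSVA_F&D, and conv-dSVA_F lay above conv-dSVA_D without overlap. The difference of 0.48 ± 0.15 did not pass the threshold (limma adjusted p = 0.155), nor under any alternative setting tried.

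Across the transcriptome, 205 genes were called, 1.35% of those tested. Of these, 165 (1.08% of the tested genes) were higher in conv-dSVA_F and 40 (0.262%) were lower, and the median difference over all tested genes was -0.01. The higher genes also differed more: their median difference was 1.49, against -1.09 for the lower genes. At least 2-fold differences were seen in 106 of the higher and 21 of the lower genes, and at least 8-fold differences in 34 and 1. The 205 calls rest on each library of the 2 lines. Without conv-dSVA_F replicate 1 the test gave 5 calls, and without conv-dSVA_F replicate 2 it gave 109, of which 77 were among the 205. Without conv-dSVA_D replicate 1 there were 3, and without conv-dSVA_D replicate 2 there were 0 by limma, with 1833 genes at an unadjusted p below 0.05. edgeR on the recovered reads, with all libraries, called 225 genes, 203 of them among the 205. The replicates of conv-dSVA_F were themselves unequal in the genes that rose: 133 of the 165 were higher in replicate 1 than in replicate 2, as were 50.6% of all tested genes, and 24 were at least 2-fold higher.

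**Figure D1:**
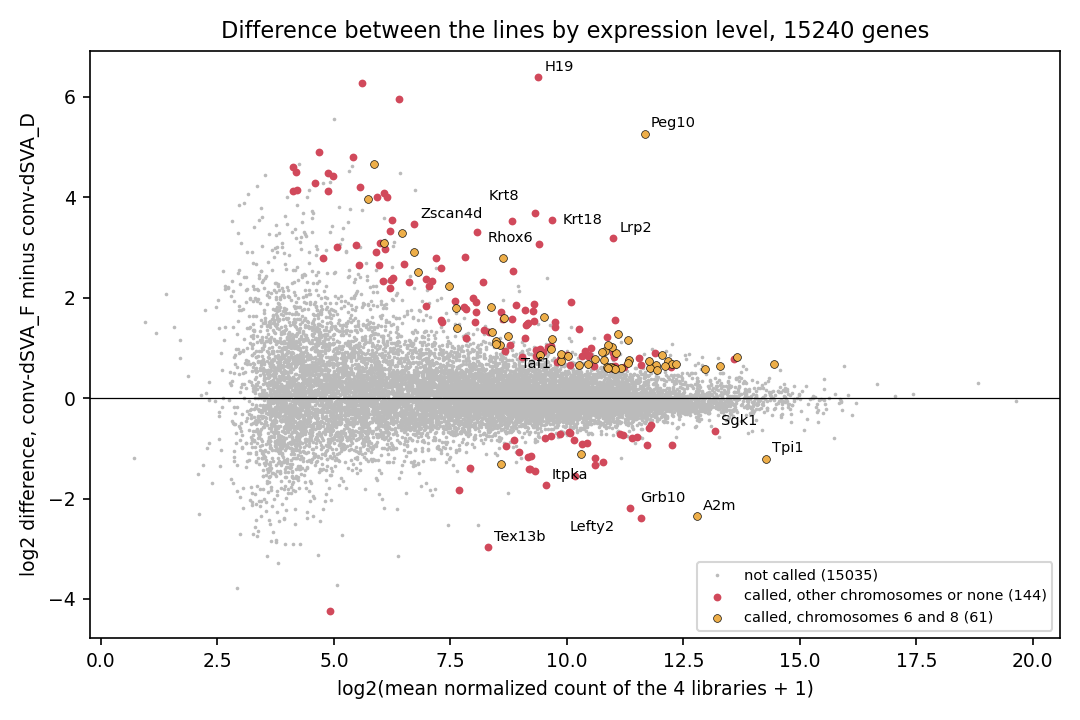
Each point is a gene; the horizontal axis is log2 of its mean normalized count over the 4 libraries plus 1 and the vertical axis its log2 difference, conv-dSVA_F minus conv-dSVA_D. Coloured points are the 205 called genes, 61 of them on chromosomes 6 and 8, and the higher genes reach 6.39 (H19) while 1 lower gene passes -3.

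Of the 34 lists other than the gene families added later, the one with the highest median difference was that of the 2-cell-like state, genes that embryonic stem cells express in rare cells resembling the embryo after its first division. Of 19 members tested, 5 rose in conv-dSVA_F, 0 fell and 14 were not called, and the median difference of the 19 was 2.40. Over all tested genes, 1.08% were called higher. The 5 were Zscan4a, Zscan4c and Zscan4d of the telomere-linked zinc finger cluster, Tmem92 and Tcstv3. edgeR called 6 members and DESeq2 10. Zscan4d (chromosome 7, 11161374 to 11166159) stood at 242 and 142 normalized counts in conv-dSVA_F and at 16.3 and 15.5 in conv-dSVA_D. The wild type was 428 and conv-dSVA_F&D 109.9 and 72.4. The wild-type library was the highest, conv-dSVA_F came next and conv-dSVA_D was far below every other library (difference 3.46 ± 0.39, limma adjusted p = 0.0114).

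Zscan4a, Zscan4c and Tmem92 were likewise highest in the wild type and lowest in conv-dSVA_D, and for Zscan4a and Tmem92 conv-dSVA_F overlapped with conv-dSVA_F&D. Zscan4a was 147 and 119 in conv-dSVA_F, against 9.60 and 15.5 in conv-dSVA_D. The values of conv-dSVA_F&D were 199 and 93.3, and the wild type was 535. Tmem92 was 175 and 102 against 9.60 and 11.4, with 389 in the wild type. Zscan4c was 140 and 99.5 against 22.1 and 8.98, with 371 in the wild type. Differences were 3.33 ± 0.44 for Zscan4a, 3.55 ± 0.42 for Tmem92 and 2.97 ± 0.46 for Zscan4c. Relative to the wild type, the median level of the 19 members was -1.26 and -2.05 on the log2 scale in the conv-dSVA_F libraries and -4.46 and -4.14 in conv-dSVA_D, whereas it was -1.72 and -2.34 in conv-dSVA_F&D. All 6 converted libraries thus lay below the wild type, and conv-dSVA_D lay lowest. Members were tested by their mean over all libraries, so a member can enter through a high wild-type value. The median levels relative to the wild type are limited by this. Members of these families are near-identical copies whose reads can be shared out between them, so the values of single copies are uncertain. In a bulk sample, fewer cells in this state and less RNA per such cell cannot be told apart.

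Other multicopy families active in early cleavage embryos were looked at after their values had been seen. Of 16 Eif1ad genes tested, named for their likeness to a translation factor, 4 were called, all higher, with a median difference of 2.85 over the 16. Eif1ad15 was 309.7 and 198 in conv-dSVA_F, against 25.0 and 48.2 in conv-dSVA_D. The values of conv-dSVA_F&D were 199 and 178, and the wild type was 1274 (2.80 ± 0.35, limma adjusted p = 0.0151). Of 13 Pramel genes, leucine-rich repeat proteins of germ cells and early embryos, 3 were called, all higher, with a median of 2.69. Pramel20 stood at 112 and 65.0 against 1.92 and 6.53, and at 311 in the wild type. In both families the wild-type library was again above conv-dSVA_F, and conv-dSVA_D was the lowest group. Here too the wild type counted in the mean by which members were tested. Over all tested genes, 1.08% were called higher.

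Promoters of 3 genes from these families and of 3 other called genes are shown. Zscan4c and Zscan4d, which rose together, are nearly the same sequence there. The TATA box is the core promoter element that TFIID contacts through TBP. All those printed hold TATAAA, so they do not represent the called genes, few of which hold it. The same 120 bases of Krt8, Krt18 and Taf1 hold none and are not printed. Whether TAF1 or the TATA box has a part in the differences was not tested. Each line is the 120 bases up to the annotated start, taken from RefSeq (GRCm38.p6), and the capitals mark TATAAA on the gene's strand. Zscan4c lies at chr7:11005624-11005743 (plus strand), Zscan4d at chr7:11166150-11166269 (minus), Pramel20 at chr4:143567346-143567465 (plus), Abca1 at chr4:53159897-53160016 (minus), Ccn1 at chr3:145649987-145650106 (minus) and Sgk1 at chr10:21992102-21992221 (plus). The last 3 are a cholesterol exporter, a matricellular protein and a serum-induced kinase. Abca1 and Ccn1 rose and Sgk1 fell.

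Zscan4c: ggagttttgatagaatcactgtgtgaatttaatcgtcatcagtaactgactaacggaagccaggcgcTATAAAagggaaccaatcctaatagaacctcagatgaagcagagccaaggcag
Zscan4d: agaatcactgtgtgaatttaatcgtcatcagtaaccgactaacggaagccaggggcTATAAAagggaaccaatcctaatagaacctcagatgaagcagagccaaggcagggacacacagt
Pramel20: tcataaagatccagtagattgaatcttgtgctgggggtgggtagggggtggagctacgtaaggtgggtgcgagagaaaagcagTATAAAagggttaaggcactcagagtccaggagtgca
Abca1: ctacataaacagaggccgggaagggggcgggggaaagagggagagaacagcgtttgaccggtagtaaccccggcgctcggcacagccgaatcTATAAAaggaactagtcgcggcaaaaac
Ccn1: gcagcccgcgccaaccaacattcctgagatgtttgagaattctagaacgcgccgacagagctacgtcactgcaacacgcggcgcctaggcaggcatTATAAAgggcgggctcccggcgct
Sgk1: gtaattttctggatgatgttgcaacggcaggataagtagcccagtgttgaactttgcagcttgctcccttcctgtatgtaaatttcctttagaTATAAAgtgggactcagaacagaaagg

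Over the 289 positions that the 300-base windows of Zscan4c and Zscan4d share when shifted by 11 bases, 281 were identical (97.2%). The TATAAA starts 53 and 64 bases before the annotated starts of these genes, and 24 to 37 bases before those of the other 4. A RefSeq promoter was found for 10904 of the tested genes (71.5%). TATAAA starting 20 to 40 bases before the start, on the gene's strand, was in 164 of them (1.50%). It was in 7 of 122 promoters of genes called higher (5.74%) and in 1 of 30 of genes called lower (3.33%). Anywhere in the window and on either strand, it was in 9.01% of all promoters, 14.8% of those of higher genes and 6.67% of those of lower genes. The median promoter of all tested genes held 20 CpG dinucleotides, and that of genes called at least 4-fold higher held 5, with a promoter found for 31 of these 57. These are descriptions of the windows with no test.

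Imprinted genes, which are expressed from 1 parental allele, included the largest difference of all called genes, that of H19. Over all tested genes, 1.08% were called higher and 0.262% lower. Of 23 paternally expressed genes tested, 6 rose, 0 fell and 17 were not called, with a median of 0.60. Of 19 maternally expressed genes, 2 rose (H19 and Ppp1r9a), 1 fell (Grb10) and 16 were not called, with a median of 0.18. H19, a maternally expressed long noncoding RNA that is the host of a microRNA (chromosome 7, 142575529 to 142578143), was 2100.0 and 554 in conv-dSVA_F, against 14.4 and 9.80 in conv-dSVA_D. It was 514 and 1432 in conv-dSVA_F&D, and the wild type was 350.4. Both conv-dSVA_D libraries were far below all others, and conv-dSVA_F and conv-dSVA_F&D overlapped. The difference between the lines was 6.39 ± 0.60 (limma adjusted p = 0.00439). It remained called without conv-dSVA_F replicate 1 (5.43) or 2 (7.35), but the limma adjusted p was 0.0648 and 0.0667 without conv-dSVA_D replicates 1 and 2. Igf2, the growth factor gene next to H19 that is expressed from the other allele, differed by 2.92 and was not called (limma adjusted p = 0.23).

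Peg10, a paternally expressed gene derived from a retrotransposon and needed for placenta formation, was 10105 and 2484 in conv-dSVA_F, against 387 and 42.5 in conv-dSVA_D. It was 1032 and 1803 in conv-dSVA_F&D, and the wild type was 594. The replicates of each deletion line differed by several fold, and the lines still did not overlap (5.27 ± 0.88, limma adjusted p = 0.0268). Without conv-dSVA_F replicate 1 the difference was 4.26 and not called (adjusted p = 0.331), and without conv-dSVA_D replicate 2 it was 3.69 (adjusted p = 0.103). Sgce, which encodes epsilon-sarcoglycan, is mutated in myoclonus-dystonia and shares its promoter region with Peg10, was 147 and 91.4 against 10.6 and 15.5. The wild type was 24.0 and conv-dSVA_F&D 18.3 and 8.36, so for Sgce it was conv-dSVA_F that stood above all other libraries (3.08 ± 0.61, limma adjusted p = 0.0446). Ppp1r9a, a neuronal actin-binding protein gene on the far side of Peg10, was 642 and 559 against 234 and 270.2 (1.25 ± 0.19, limma adjusted p = 0.021).

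These 3 genes lie side by side on chromosome 6, Sgce starting 73.0 kb before and Ppp1r9a 156 kb after the start of Peg10. Of the 13 other tested genes within 2 Mb of Peg10, looked at after its value was seen, only Slc25a13, a mitochondrial carrier gene 1294 kb after it, was called (0.67 ± 0.11, limma adjusted p = 0.0234). Casd1, 146 kb before Peg10, differed by 0.88 ± 0.25 and Bet1, 670.4 kb before, by 0.58 ± 0.23, neither called. Pon2 and Pon3, 517 and 474 kb after it, differed by 1.85 and 2.01, also uncalled. Mest, another paternally expressed gene of chromosome 6, was 3465 and 3522 against 1879 and 1299.7, with 537 in the wild type (1.16 ± 0.20, limma adjusted p = 0.0288). With each chromosome's median set equal, Peg10 (5.02) and Ppp1r9a (1.00) remained called, and Sgce and Mest (limma adjusted p = 0.0521) did not. That setting removes the median of the whole chromosome. In the first of 6 parts of chromosome 6, which holds these genes, the lines differed by a median of 0.49. Part of the shift there thus remained in the values.

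On other chromosomes, Peg3, a paternally expressed zinc finger gene, was 3534 and 2676 against 1176 and 937 (1.55 ± 0.22, limma adjusted p = 0.0193), with 2005 in the wild type between the lines. Impact, a translation regulator, was 2644 and 2585 against 1369 and 1612 (0.81 ± 0.14). Slc38a4, an amino acid transporter, was 4104 and 3498 against 2407 and 2361 (0.67 ± 0.12), and the wild type (3799) lay with conv-dSVA_F. Grb10, an adaptor that restrains insulin and IGF receptor signalling, went the other way. It was 727 and 1089.7 in conv-dSVA_F, against 2887 and 5723 in conv-dSVA_D. The values of conv-dSVA_F&D were 3201 and 2377, and the wild type was 3603. Here conv-dSVA_F stood below all other libraries (-2.19 ± 0.30, limma adjusted p = 0.0172). The imprinted genes thus did not single out the same line each time: H19 was low in conv-dSVA_D, whereas Sgce was high and Grb10 low in conv-dSVA_F.

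**Figure D2:**
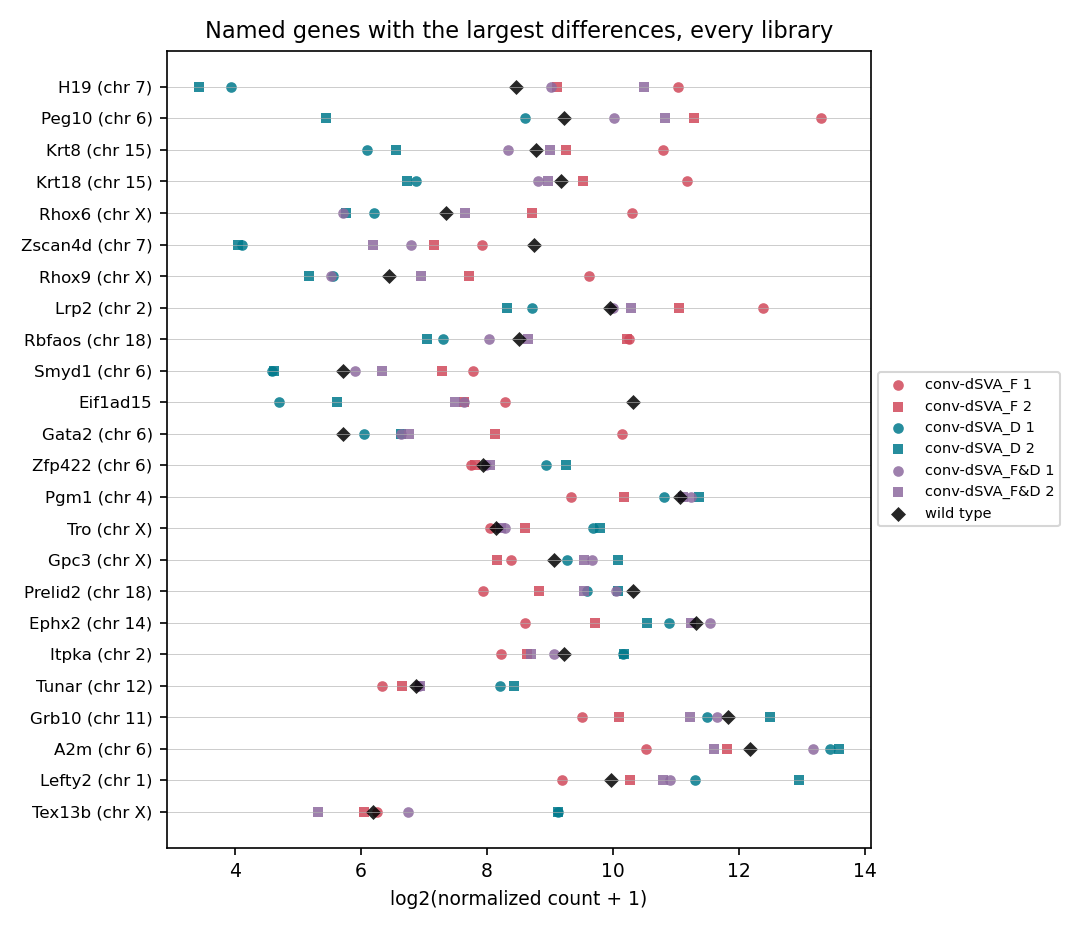
Each row is a gene named by the rule for the largest differences, and the horizontal axis is log2 of the normalized count plus 1; symbols are the 7 libraries. For H19, Krt8 and Zscan4d the conv-dSVA_D libraries lie below all others, whereas for Grb10 the conv-dSVA_F libraries do, and for Tex13b the conv-dSVA_D libraries lie above all others.

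Keratins and trophoblast genes formed the next group. Of 13 members tested, 3 rose (Krt8, Krt18 and Gata2), 0 fell and 10 were not called, and the median was 1.51. Over all tested genes, 1.08% were called higher. Krt8 and Krt18 encode the partner keratins of simple epithelia and are neighbours on chromosome 15. Krt8 was 1765 and 609 in conv-dSVA_F against 67.2 and 93.1 in conv-dSVA_D; conv-dSVA_F&D had 320.5 and 508, and the wild type was 438. Krt18 was 2310.2 and 734 against 116 and 105, with 448, 497 and 575 in the same other libraries. For both genes conv-dSVA_D lay below every other library (3.70 ± 0.43 and 3.55 ± 0.41, limma adjusted p = 0.0114 for each). Gata2, a transcription factor of blood and trophoblast, was 1133 and 278 against 65.3 and 98.8, while conv-dSVA_F&D (98.9 and 107) and the wild type (51.3) lay near conv-dSVA_D. The difference of 2.79 ± 0.54 was called (limma adjusted p = 0.0426) and was not with chromosome medians set equal (0.0521).

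Of the 5 trophoblast identity markers, all but Eomes had both conv-dSVA_F values above those of conv-dSVA_D. Over all tested genes, 52.0% had no overlap between the lines, in either direction. None of the 3 markers that were tested was called. Cdx2 was 168 and 77.2 against 13.4 and 10.6 (3.15 ± 0.88) and was not called (limma adjusted p = 0.117). Gata3 was 154 and 64.0 against 18.2 and 18.8 (2.36, limma adjusted p = 0.109). Eomes was 277 and 479 against 445 and 400.0, with overlapping libraries. Elf5 and Hand1 were below 12 normalized counts in every library and were not tested. Summed over Cdx2, Eomes, Elf5, Gata3 and Hand1, the markers reached 621 and 635 in conv-dSVA_F, against 480.1 and 430.2 in conv-dSVA_D, with 298 to 652 in conv-dSVA_F&D, and in conv-dSVA_D most of this sum was Eomes. Of the markers fixed for checking identity, 5 primitive endoderm, 2 mesoderm, 2 neural and 4 fibroblast markers were tested. None of these was called, but with 1.35% of all tested genes called, so few markers may hold none. In the longer fibroblast and feeder list, limma called 0 of 10 tested genes and DESeq2 called 4. The median of these 10 was 0.67, with 5 at an unadjusted p below 0.05, against 2541 of all 15240 tested genes. What part cells of other identities have in the differences was not tested.

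Lrp2, an endocytic receptor of the extraembryonic endoderm and other absorptive epithelia, was 5304 and 2110.3 against 421 and 318, with 983 in the wild type (3.19 ± 0.34, limma adjusted p = 0.0109). It was the only one of 14 primitive endoderm and basement membrane genes called. Gata4 and Gata6 stayed at or under 44 normalized counts in all libraries. Mbp, the myelin basic protein gene, which also has products outside the nervous system, was the only called neural list member of 8, at 183 and 128 against 18.2 and 29.4. Ccn1 was the only one of 16 immediate early genes called, at 879 and 662 against 355 and 310.2 (1.20 ± 0.19). Most members of these 3 lists, called or not, were above 0. They were 12 of 14 for primitive endoderm (median 0.48), 5 of 8 for neural (0.42) and 15 of 16 for immediate early genes (0.33). DESeq2 called 3, 2 and 3 members in this order. By limma 1.35% of all tested genes were called.

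The gene with the smallest p was Rbfaos, a long noncoding RNA on chromosome 18. It was 1222 and 1198 in conv-dSVA_F, against 157 and 131 in conv-dSVA_D. The values of conv-dSVA_F&D were 260.0 and 401, and the wild type was 361. The replicates of each line were close and conv-dSVA_F stood above all other libraries (3.06 ± 0.23, limma adjusted p = 0.00204). It stayed called without any 1 of the libraries but conv-dSVA_D replicate 2, where the adjusted p was 0.0667. Counting by strand is not given in the sources, and reads of Rbfaos and of a gene on the opposite strand may not be separated. Smyd1, a muscle methyltransferase gene on chromosome 6, was 218 and 154 against 23.0 and 23.7, with 51.3 in the wild type (2.92 ± 0.39).

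Of 27 germline and meiosis genes, 5 rose and 1 fell, beside 1.08% called higher and 0.262% lower of all tested genes. The other 21 were not called, and the median was 0.66. Rhox6 and Rhox9, homeobox genes of the reproductive X-linked cluster, were among the higher ones. Rhox6 was 1265 and 420.4 against 73.0 and 53.1, with 51.3 and 199 in conv-dSVA_F&D, and the wild type was 162 (3.53 ± 0.62, limma adjusted p = 0.031). Rhox9 was 784 and 209 against 46.1 and 35.1, and 86.2 in the wild type (3.30 ± 0.62). The conv-dSVA_F libraries were the highest for both genes. Hormad1, a meiotic axis protein gene, was 959 and 863 against 461 and 460.4, and Fkbp6, a piRNA pathway gene, 767 and 582 against 185 and 266. Stk31 of the testis, on chromosome 6, rose by 1.15 and was not called with chromosome medians set equal. Tex13b, an X-linked testis gene, was the lower one. It was 75.7 and 65.0 in conv-dSVA_F, against 559 and 557 in conv-dSVA_D. The values of conv-dSVA_F&D were 106 and 39.0, and the wild type was 72.0. Both conv-dSVA_D libraries stood above all others (-2.97 ± 0.42, limma adjusted p = 0.0193).

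Among the named genes that were lower in conv-dSVA_F, Lefty2, a secreted Nodal antagonist, was 584 and 1229 against 2515 and 7916, with 998 in the wild type (-2.40 ± 0.46, limma adjusted p = 0.0408). It was the only one of 17 Nodal and BMP targets called. Lefty1 differed by -1.89 and was not called (limma adjusted p = 0.17). Gpc3, a glypican that restrains growth signalling, was 331 and 283 against 618 and 1083, with 534 in the wild type (-1.42 ± 0.24). Itpka, an inositol phosphate kinase gene, was 296 and 397 against 1146 and 1149 (-1.74 ± 0.19, limma adjusted p = 0.0114), and the wild type (594) lay between. Ephx2, an epoxide hydrolase gene, was 388 and 838 against 1884 and 1484, and all of conv-dSVA_F&D (2964 and 2404) and the wild type (2533) were higher still. Tunar, a pluripotency-linked RNA, was 80.0 and 99.5 against 294 and 345, and the wild type (117) lay near conv-dSVA_F. Tro, encoding an adhesion-linked MAGE protein, was 265 and 388 against 819 and 888, with 281 in the wild type.

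Of 22 core and naive pluripotency genes tested, 0 rose, 1 fell and 21 were not called, beside 1.35% called of all tested genes. Their median was -0.24, with 4 members above 0. At an unadjusted p below 0.05 there were 10 of the 22, against 2541 of all 15240 tested genes, and DESeq2 and limma with chromosome medians set equal called 3 each. The called member was Tcl1, a co-activator of AKT that sustains self-renewal, at 850.0 and 1199 against 1989.5 and 2981, with 1809.7 in the wild type (-1.27 ± 0.22, limma adjusted p = 0.0288). Pou5f1 differed by -0.04 and Nanog by -0.37, neither called. None of 13 formative and primed genes was called by the main limma fit, with 6 at an unadjusted p below 0.05. DESeq2 and limma with chromosome medians set equal called 1 each.

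Glycolysis and hypoxia genes had the most negative median of the 34 lists, -0.39 over 30 members, of which 0 rose, 2 fell and 28 were not called. Of the 30, 16 were at an unadjusted p below 0.05, and DESeq2 called 9. Over all 15240 tested genes, 2541 were at an unadjusted p below 0.05 and limma called 1.35%. On chromosomes 6 or 8, whose levels differed between the lines, lie 8 of the 30, Tpi1 among them. Tpi1, triosephosphate isomerase, was 9125 and 15308 against 24186 and 30624, with 19068 in the wild type (-1.20 ± 0.21, limma adjusted p = 0.031). Ddit4, a stress-induced inhibitor of mTORC1 that is also a p53 target, was 889 and 876 against 1608 and 1739.7, with 1213 in the wild type (-0.92 ± 0.13, limma adjusted p = 0.0193). Among the uncalled members, Pgk1 differed by -0.89, Bnip3 by -1.32, Ldha by -0.63 and Gapdh by -0.42. Pgm1, which links glycogen to glycolysis and was outside the list, fell from 1782 and 2625 in conv-dSVA_D to 643 and 1156 (-1.33 ± 0.26). Relative to the wild type, the median level of the 30 was -0.97 and -0.46 on the log2 scale in the conv-dSVA_F libraries, with -0.44 and -0.11 for conv-dSVA_D and 0.17 and -0.00 for conv-dSVA_F&D. Both deletion lines were below the wild type by this measure, and both conv-dSVA_F libraries were below both of conv-dSVA_D.

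**Figure D3:**
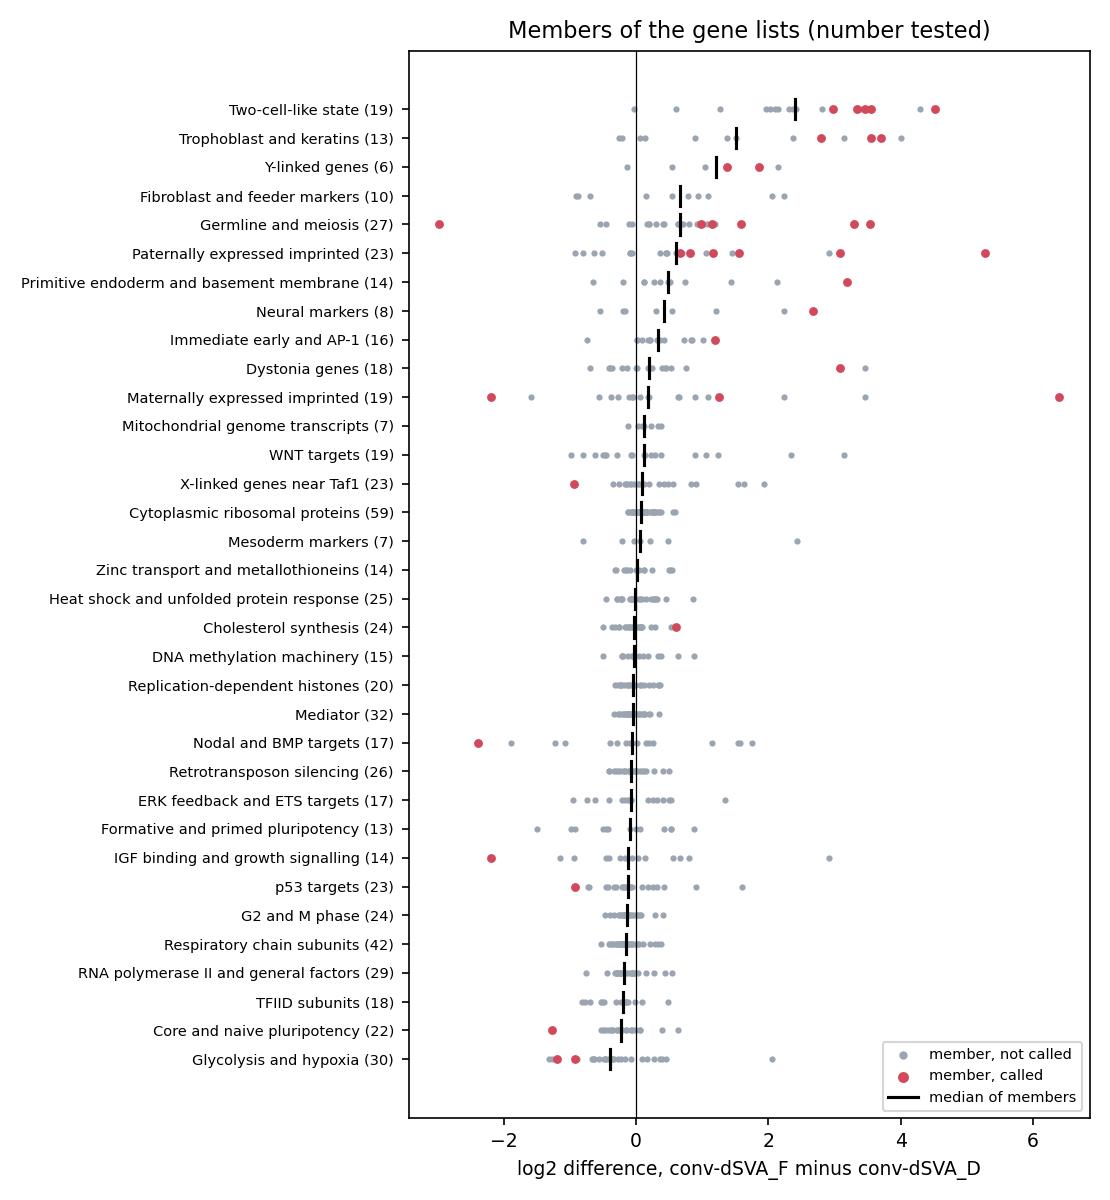
Rows are the 34 gene lists with the number of members tested; each point is a member's log2 difference, conv-dSVA_F minus conv-dSVA_D, red where called, and the bar is the median of the members. The 2-cell-like list lies farthest to the right (median 2.40) and glycolysis and hypoxia farthest to the left (-0.39).

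Of 18 genes tested of TFIID, the complex that TAF1 belongs to, 0 were called by limma or edgeR, and DESeq2 called 2. By limma 1.35% of all tested genes were called, so a list of this size may hold none. At an unadjusted p below 0.05 there were 6 of the 18, against 2541 of all 15240 tested genes. The median of the 18 was -0.20, and only Taf1 and Taf8 (0.08) were above 0. Taf5, a scaffold subunit, was 1027 and 1205 against 1781 and 1843, with 1138 and 928 in conv-dSVA_F&D, and the wild type was 922. For Taf5 it was conv-dSVA_D that stood above the other libraries, and the difference fell short of the threshold (-0.70 ± 0.15, limma adjusted p = 0.0549). Taf6, which pairs with Taf9 in the complex, was 1292 and 1662 against 2222 and 2039 (-0.54 ± 0.14, limma adjusted p = 0.106). None of 29 genes of RNA polymerase II and the general factors (median -0.18, 5 at an unadjusted p below 0.05) and none of 32 Mediator genes (median -0.05, 0 at an unadjusted p below 0.05) was called by limma.

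Of 23 X-linked genes around Taf1, 1 was called. This was Slc7a3, a cationic amino acid transporter gene at 101079210 to 101086020 on chromosome X, within 0.5 Mb of Taf1, at 2873 and 3867 against 6720.5 and 6111, with 3858 in the wild type (-0.94 ± 0.17, limma adjusted p = 0.031). conv-dSVA_D stood above all other libraries. The median of the 23 was 0.08. Of 18 dystonia genes, Sgce was the only one called, and the median was 0.19. The main limma fit called no member of the lists of 42 respiratory chain, 59 cytoplasmic ribosomal protein and 15 DNA methylation genes. The same held for 26 retrotransposon silencing, 24 mitotic and 20 replication-dependent histone genes. At an unadjusted p below 0.05 these lists held 7, 7, 1, 6, 4 and 1 genes, and their medians lay between -0.16 and 0.08. Over all 15240 tested genes, 2541 were at an unadjusted p below 0.05 and 1.35% were called by limma. DESeq2 called 2, 2, 1, 3, 1 and 0 genes in the same order. limma with chromosome medians set equal called 1 DNA methylation gene and 1 retrotransposon silencing gene.

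The called genes were not spread evenly over the genome. Chromosomes 6 and 8 held 61 of the 205, and 57 of the 165 higher genes (34.5%), with 10.1% of the tested genes. On chromosome 8 the median difference was 0.38, 86.0% of genes were above 0, and 19 genes were called, all higher (2.35% of 808). On chromosome 6 the median was 0.30, and 38 genes were higher and 4 lower (5.69% of 738 called). The median of each of the other 17 autosomes lay between -0.10 and -0.00. Outside chromosomes 6, 8 and Y, 135 of the genes with a known position were called, 100 higher and 35 lower, which is 0.998% of those tested there.

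**Figure D4:**
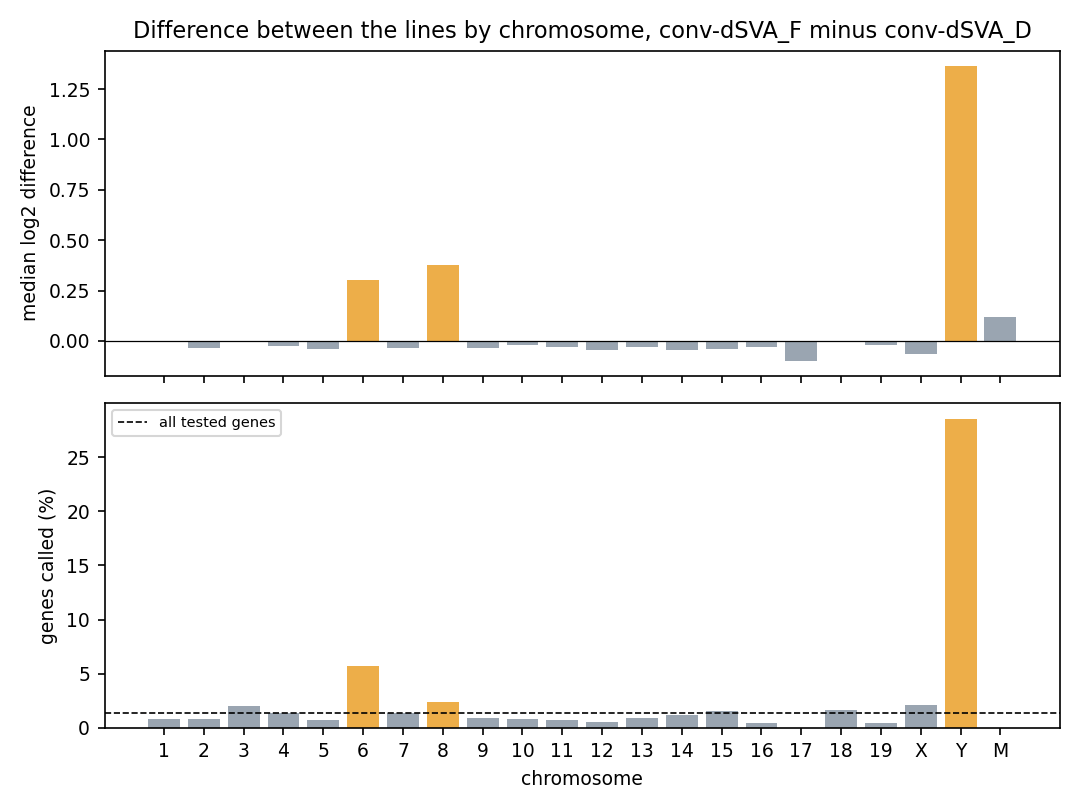
Bars give, for each chromosome, the median log2 difference of its tested genes (upper panel, conv-dSVA_F minus conv-dSVA_D) and the share of its genes called (lower panel, %; dashed line, all tested genes). Chromosomes 6, 8 and Y, in orange, have medians of 0.30, 0.38 and 1.37, and the other autosomes lie between -0.10 and -0.00; Y holds only 7 tested genes.

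On chromosome 8 both libraries of conv-dSVA_F were above the wild-type library, by a median of 0.63 and 0.44 over genes with a mean of at least 50. The conv-dSVA_D libraries were above it by 0.07 and 0.25, and conv-dSVA_F&D by 0.00 and -0.01. The shift ran along the whole chromosome: in 6 consecutive parts with equal gene numbers, the difference between the lines was 0.33 to 0.40. Each replicate pair was unequal, since conv-dSVA_F replicate 1 exceeded replicate 2 and conv-dSVA_D replicate 2 exceeded replicate 1. Called genes there included Lamp1, a lysosomal membrane protein gene, at 13469 and 10917 against 7427 and 8129 (0.64 ± 0.13), and Msmo1, a cholesterol synthesis enzyme gene, at 2881 and 2604 against 1782 and 1830.3 (0.60 ± 0.12). With chromosome medians set equal they differed by 0.27 and 0.22 and were not called.

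Chromosome 6 changed along its length. In the first 3 of its 6 parts, from 3333194 to 87092197, the lines differed by 0.49, 0.48 and 0.43 over genes with a mean of at least 50, and 10, 14 and 8 genes were called higher and 0 lower. In the last 2 parts, from 114282635 to 149563329, they differed by -0.17 and -0.16, and 1 gene was higher and 4 were lower. conv-dSVA_F was above the wild type by 0.26 to 0.46 in every part. conv-dSVA_D lay at -0.23 to -0.14 in the first 2 parts and at 0.52 to 0.58 in the last 2, while conv-dSVA_F&D stayed within -0.09 to 0.09. The 4 lower genes of chromosome 6 all lie in this last stretch: Zfp422, A2m, Tpi1 and Ldhb. A2m, a secreted protease inhibitor, was 1468 and 3587 against 11122 and 12225 (-2.34 ± 0.47), a difference well beyond the median of its part, and edgeR and DESeq2 did not call it. Ldhb, a lactate dehydrogenase subunit that was looked at after its value was seen, was 707 and 905 against 1593 and 1869.5 (-1.11 ± 0.17). Tpi1, named above among the glycolytic genes, is in the same stretch, and its difference was -1.45 with chromosome medians set equal. That setting removes the median of the whole chromosome, while in this stretch the lines differed in the opposite direction. The shift of the stretch itself was not removed.

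**Figure D5:**
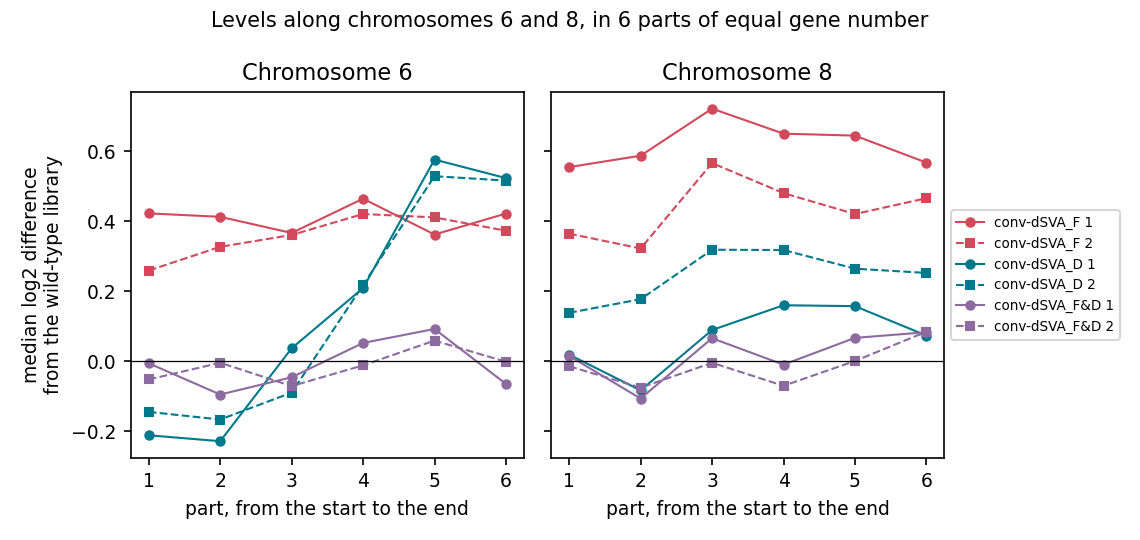
Each line is a library of a converted line; the horizontal axis is the part of the chromosome, from start to end in 6 parts of equal gene number, and the vertical axis the median over genes of log2 of its level over the wild type. On chromosome 6 the conv-dSVA_D libraries climb from about -0.2 to above 0.5, while conv-dSVA_F stays between 0.26 and 0.46; on chromosome 8 conv-dSVA_F lies above conv-dSVA_D in every part.

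Both called Y-linked genes, of 6 listed genes tested, were higher in conv-dSVA_F. Uty, a histone demethylase relative, was 591 and 914 against 153 and 269, with 1047 and 1173 in conv-dSVA_F&D, and the wild type was 737 (1.85 ± 0.28, limma adjusted p = 0.0193). Uba1y, a ubiquitin-activating enzyme gene, was 342 and 523 against 179.6 and 149, with 384 in the wild type (1.37 ± 0.23). The conv-dSVA_D libraries were the lowest of all for both genes. The median of the 6 was 1.20, and -0.05 with chromosome medians set equal, where none was called. The Y median that this setting removes comes from largely these same genes. A list median near 0 there follows from the setting and is not a separate result. What part shifts of whole chromosomes or parts of them have in single genes was not tested, and the line and its chromosome levels cannot be told apart.

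With every chromosome's median set to the same value, 194 genes were called, 145 higher and 49 lower, and 155 of the 205 were among them. On chromosome 18, which holds Rbfaos, conv-dSVA_F&D replicates 1 and 2 were at -0.02 and 0.48 relative to the wild type. That reference line was thus itself unequal there. Tested without chromosomes 6, 8, 18 and Y, 125 genes were called, 97 higher and 28 lower. The 2-cell-like, imprinted, keratin and germline genes on other chromosomes that are named above as called were also called with chromosome medians set equal. Among them were H19, Zscan4d, Krt8, Krt18, Peg3, Rhox6 and Tex13b, which lie on chromosomes 7, 15 and X. The medians of these chromosomes were -0.03, -0.04 and -0.06, so the setting could change the differences of these genes only a little.

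The wild-type level was nearer to conv-dSVA_F for 90 of the 165 higher genes and for 20 of the 40 lower genes, against 51.8% of all tested genes. The mean of conv-dSVA_F&D was nearer to conv-dSVA_F for 91 of the 165 and 17 of the 40, against 49.4% of all. Outside chromosomes 6, 8 and Y the wild type was nearer to conv-dSVA_F for 65 of 100 higher and 18 of 35 lower genes, and conv-dSVA_F&D for 69 and 15. For 31 of the 165 higher genes, including Zscan4d, Zscan4a and Eif1ad15, the wild-type level was above both conv-dSVA_F libraries. For 16, including Gata2 and Mest, it was below both conv-dSVA_D libraries.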

How the data were processed

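RNA-seq of stranded total RNA after ribosomal RNA depletion was deposited as 1 table. Its signal values are gene counts that the authors divided by 1 size factor per library, per the file's values: 100% of positive values came to whole reads within a tolerance of 0.1 read, so reads were recovered. The build mm10, featureCounts 1.6.3, STAR 2.7.3, Trimmomatic 0.36, DESeq2, Picard 2.18.20 and deepTools 3.1.0 are listed in the submitters' processing notes. How strand was set and which annotation was counted is not stated there.

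limma 3.58.1 (R 4.3.3, lmFit and eBayes with a variance trend) was fitted to log2(normalized count + 1) of the 15240 genes whose mean over 7 libraries reached 10, with 1 mean for each of the 4 groups, 3 residual degrees of freedom and a two-sided adjusted p below 0.05. Because 1 is added, differences of low genes are understated. The fit was tested on simulated data. Alternatives used edgeR 4.0.16 and DESeq2 1.42.0 on recovered reads. Genes were placed by name with GENCODE M21 and RefSeq (95.3% of genes). At 21360424 to 26562418 reads per library of the 2 lines, 3 reads, the limit that a count of 0 allows, equal 2.45 to 3.05 normalized counts, which covers counting error only.

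Taf1 is named, then up to 12 called genes per direction with the largest difference, a mean of 100 or more and libraries of the lines that do not overlap, leaving out predicted, clone and pseudogene names. Up to 8 more per direction come from outside chromosomes whose median differs by over 0.15, and up to 4 called members, or else 2, from each list, by p. Genes and lists were chosen with earlier results of these data known, and the Eif1ad, Pramel, Rhox and Tdpoz lists after values were seen. Of the last 2 lists, 2 of 5 and 1 of 2 tested genes were called higher.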

Additional observations from a re-analysis of the deposited data

How the results depend on the processing

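The count of 205 called genes was 0 without the filter on low values (limma, 3451 genes at an unadjusted p below 0.05), 1 without the variance trend (2013 at an unadjusted p below 0.05), 504 with only the 4 libraries of both lines, 729 with DESeq2 (549 higher, 180 lower) and 125 without chromosomes 6, 8, 18 and Y, where fewer genes were tested. It stayed between 187 and 252 with other pseudocounts, a mean of at least 50, edgeR, TMM scaling, chromosome medians set equal or without the wild type. Leaving out 1 library at a time gave 0 to 485. Without conv-dSVA_F&D replicate 1 or 2 it was 485 and 484. Of the 43 named genes called, none changed direction in any setting. Those lost under chromosome medians set equal were Gata2, Prelid2, Mest, Msmo1, Uty, Uba1y and Sgce. Leaving out 1 library, the uncalled mt-Nd1 ranged from -0.019 to 0.67 and mt-Cytb from -0.15 to 0.61, with mt-Cytb at -0.076 without conv-dSVA_D replicate 2. The chromosome 6 median was 0.27 with a mean of at least 50 and 0.27 to 0.33 leaving out 1 library. Other causes were not tested. No paired analysis was possible because the labels carry no replicate numbers. For genes near 10 normalized counts, a library at 0 still allows up to 3 reads.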

Other observations

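Some called genes with low levels and large differences on the log2 scale fell outside the rule for naming genes and were chosen after their values were seen. Dppa1, a gene of embryonic stem cells and early embryos, was 153 and 37.6 normalized counts in conv-dSVA_F and 0 in both conv-dSVA_D libraries, with 8.24 and 12.5 in conv-dSVA_F&D, and the wild type was 8.73. Nxf7, an X-linked relative of the RNA export factors, was 269 and 60.9 against 0 and 3.27, with 21.8 in the wild type. Fam183b was 0 and 7.11 in conv-dSVA_F against 40.3 and 69.4, and was 109.9 and 127 in conv-dSVA_F&D. Cntnap2 and Ccser1, genes that span long stretches of chromosome 6, were 174 and 141 against 8.64 and 26.1, and 128 and 67.0 against 1.92 and 11.4. In the wild type they were 96.0 and 142.

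Other called genes outside the rule, also chosen after their values were seen, had smaller differences. Lmna, which encodes the A-type lamins, was 1023 and 1044 against 543 and 484, with 844 in the wild type (1.01 ± 0.14, limma adjusted p = 0.0193). Tpm1, a tropomyosin gene, was 2763 and 2543 against 1416 and 1429.5, with 2072 in the wild type (0.90 ± 0.13, limma adjusted p = 0.0193). Hmga2, a chromatin protein gene of growing embryonic tissue, was 573 and 271 against 123 and 86.5. Osm, a cytokine gene of the LIF family, was 106 and 134 against 29.8 and 21.2, with 182 in the wild type. Jag1, a Notch ligand gene, was lower, at 298 and 348 against 797 and 571, with 533 in the wild type. For Lmna and Tpm1 the replicates of each line were close and the wild type lay between the lines.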
